A study of Mus musculus with 16 samples.

Results

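The collagen genes described here encode the alpha chains of the collagens, the triple-helical proteins that carry most of the tensile load of the artery wall. They were taken as the probe sets whose platform annotation gives exactly 1 gene symbol made of Col, a number, the letter a and a number. This rule found 82 probe sets of 42 genes, among 45101 probe sets and 18193 genes with 1 symbol on the array. Of the 42 genes, 35 were bright enough to be tested, which asked for a normalized signal above 16 on at least 3 of 16 arrays. The 7 others, Col26a1, Col6a5, Col9a2, Col9a3, Col10a1, Col17a1 and Col23a1, exceeded that signal on 0 or 1 arrays with each of their probe sets and are not compared further.

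RNA of cultured mouse aortic smooth muscle cells was measured on Affymetrix arrays. Hey2 KO cells, which lack the Notch-pathway transcriptional repressor Hey2, were compared with WT cells, both from mice of a mixed C57BL/6 and 129SvJ background and both used at passages 10 to 20. The cells came from enzymatic digestion of aortas freed of adventitia, and their purity was judged from smooth muscle alpha actin and calponin stains. After serum starvation both genotypes received human PDGF-BB, a growth factor that drives smooth muscle cells to divide and migrate, at 5 ng/ml, and were harvested at 0, 15, 30, 60, 120, 180, 240 or 480 min. There was 1 array for each genotype and time, so 8 Hey2 KO and 8 WT arrays. The labels state no number of animals or cell isolates per genotype, so every p-value rests on the scatter among time points, part of which may be technical. No course without PDGF-BB was analysed here, and PDGF-BB and time in culture cannot be told apart.

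Collagens are grouped by the structure they build. Fibrillar collagens (types I, II, III, V, XI and the shorter-helix types XXIV and XXVII) form cross-striated fibrils, and in arteries types I and III make up most of the fibrous matrix that smooth muscle cells and adventitial fibroblasts secrete. Type IV chains build the sheet of the basement membrane around each smooth muscle cell, type VI chains build beaded microfibrils that tie cells to that sheet, FACIT collagens sit on the surface of fibrils, and type VIII forms the short-chain network laid down by vascular cells after injury. Alpha chains of one type are usually encoded by different genes and assemble with each other inside the cell, so the balance of chain transcripts bears on which trimers can form.

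Array brightness differed as deposited, with 2% trimmed means of 187 to 343 in Hey2 KO and 81.0 to 299.5 in WT, and the arrays were brought to one distribution before testing. The WT arrays labelled 60 and 480 min stood apart from the time order. Over the 35 collagen genes, the deviations from the genotype mean correlated at r = 0.77 between the WT array labelled 60 min and the Hey2 KO 480 min array, against r = -0.54 with the Hey2 KO 60 min array. The WT array labelled 480 min had r = 0.47 with the Hey2 KO 60 min array and r = -0.48 with the Hey2 KO 480 min array. Its highest r over collagen genes was 0.58, with the Hey2 KO 0 min array, and over all tested genes 0.46, with Hey2 KO 60 min. Other arrays also missed their own time over the collagen genes. The WT 30 min array had r = 0.64 with Hey2 KO 0 min and 0.45 with Hey2 KO 30 min. Whether these labels were exchanged was not tested, and the WT values printed for 60 and 480 min may belong to other times. The labels were kept, and each count is repeated on the 12 arrays that remain when 60 and 480 min are set aside in both genotypes. Hey2 itself gave no check of the genotype labels, since no source used here gives the place of its probe set relative to the deleted part. Its signal was 23.3 to 63.3 in Hey2 KO and 14.0 to 113 in WT (difference -0.19, SE 0.32, limma adjusted p = 0.696). That average hides a change with time. At 0, 15 and 30 min the signal was 34.3, 63.3 and 42.2 in Hey2 KO and 101, 102 and 113 in WT. From there to 120, 180 and 240 min it changed by -0.43 in Hey2 KO and -2.36 in WT (difference 1.93, SE 0.34, limma adjusted p = 0.00658). Differences below are Hey2 KO minus WT, or late minus early, in log2(signal + 4.86), a scale that understates the change of dim genes.

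Promoter windows from RefSeq (GRCm38.p6), 250 bases before to 50 after each start, were found for 33 collagen genes in 36 windows. Shown here are the windows of Col4a1 and Col4a2, whose starts lie 21 bases apart on opposite strands so that their windows share 78 bases, and those of Col6a1 and Col6a3, chains of one collagen type that differed between genotypes in opposite directions. Capitals mark CCAAT, the box bound by NF-Y, GGGCGG, the GC box bound by Sp1, TGANTCA, the site of AP-1 factors, and CACGTG, the E-box, on either strand. The windows are chr8:11312777-11313076 (minus strand) for Col4a1, chr8:11312555-11312854 (plus strand) for Col4a2, chr10:76725995-76726294 (minus strand) for Col6a1 and chr1:90843922-90844221 (minus strand) for Col6a3.
Col4a1: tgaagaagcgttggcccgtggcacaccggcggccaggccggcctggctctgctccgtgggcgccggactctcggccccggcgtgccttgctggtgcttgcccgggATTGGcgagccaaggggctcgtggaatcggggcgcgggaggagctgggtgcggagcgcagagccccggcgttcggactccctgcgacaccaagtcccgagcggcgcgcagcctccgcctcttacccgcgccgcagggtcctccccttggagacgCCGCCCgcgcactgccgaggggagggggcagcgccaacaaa
Col4a2: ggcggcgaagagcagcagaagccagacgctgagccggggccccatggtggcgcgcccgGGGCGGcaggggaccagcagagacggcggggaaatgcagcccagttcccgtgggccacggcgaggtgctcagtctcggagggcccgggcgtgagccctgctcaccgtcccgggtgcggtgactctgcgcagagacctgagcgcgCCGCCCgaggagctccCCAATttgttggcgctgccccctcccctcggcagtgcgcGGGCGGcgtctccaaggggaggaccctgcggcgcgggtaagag
Col6a1: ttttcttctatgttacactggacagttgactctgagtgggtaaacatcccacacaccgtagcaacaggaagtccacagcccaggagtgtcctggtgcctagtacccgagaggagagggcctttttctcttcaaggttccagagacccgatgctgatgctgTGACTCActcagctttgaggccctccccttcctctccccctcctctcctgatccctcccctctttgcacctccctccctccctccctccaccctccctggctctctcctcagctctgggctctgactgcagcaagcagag
Col6a3: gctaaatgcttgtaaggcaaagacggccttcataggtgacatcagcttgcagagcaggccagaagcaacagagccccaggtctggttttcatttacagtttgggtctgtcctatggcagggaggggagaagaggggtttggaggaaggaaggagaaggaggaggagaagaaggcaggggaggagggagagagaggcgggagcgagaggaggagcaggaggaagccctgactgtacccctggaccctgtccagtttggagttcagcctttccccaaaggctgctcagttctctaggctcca
The Col4a1 window holds a CCAAT box 145 bases before the start and a GC box 10 bases into the transcript. In the Col4a2 window there is a CCAAT box at -32 and GC boxes at -192, -48 and 8. The GC box at 8 in Col4a2 and that at 10 in Col4a1 are the same bases, read from opposite strands. The Col6a1 window holds the only AP-1 match among the 36, at -90, and in the Col6a3 window none of these letters was found. Over all collagen windows, 61.1% held GGGCGG, against 35.7% of 32851 windows of all genes. CCAAT was held by 36.1% of collagen windows and 37.4% of all windows, TGANTCA by 2.78% and 7.81%, TATAAA by 13.9% and 13.6%, and CACGTG by 0 collagen windows and 7.15% of all. Overlapping windows of neighbouring genes share their letters, and a match is a description and not a binding site.

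The genotype comparison asked which collagen transcripts distinguished Hey2 KO from WT cells across the time course. Of 35 collagen genes, 10 were higher in Hey2 KO (28.6%, against 16.6% of the 14299 genes tested) and 4 were lower (11.4%, against 14.1%). The 10 were Col3a1, Col27a1, Col6a2, Col6a1, Col5a3, Col16a1, Col4a5, Col8a1, Col8a2 and Col5a2, and the 4 were Col2a1, Col6a3, Col11a1 and Col1a2. The median difference was 0.15 over the collagen genes and -0.02 over all genes. In bulk samples such as these, fewer cells of a type and less RNA per cell cannot be told apart. On the 12 arrays without 60 and 480 min, 13 were higher and 6 lower, against backgrounds of 21.6% and 20.9%. All 8 Hey2 KO arrays lay above all 8 WT arrays for 5 collagen genes (14.3%, against 5.39% of all genes) and below them for 1 (2.86%, against 3.06%). With the signals as deposited the median of all genes was 0.28, 87.8% of 2159 calls were higher in Hey2 KO against 53.9% of 4393 after normalization, and the collagen counts were 14 higher and 1 lower.

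**Figure D1:**
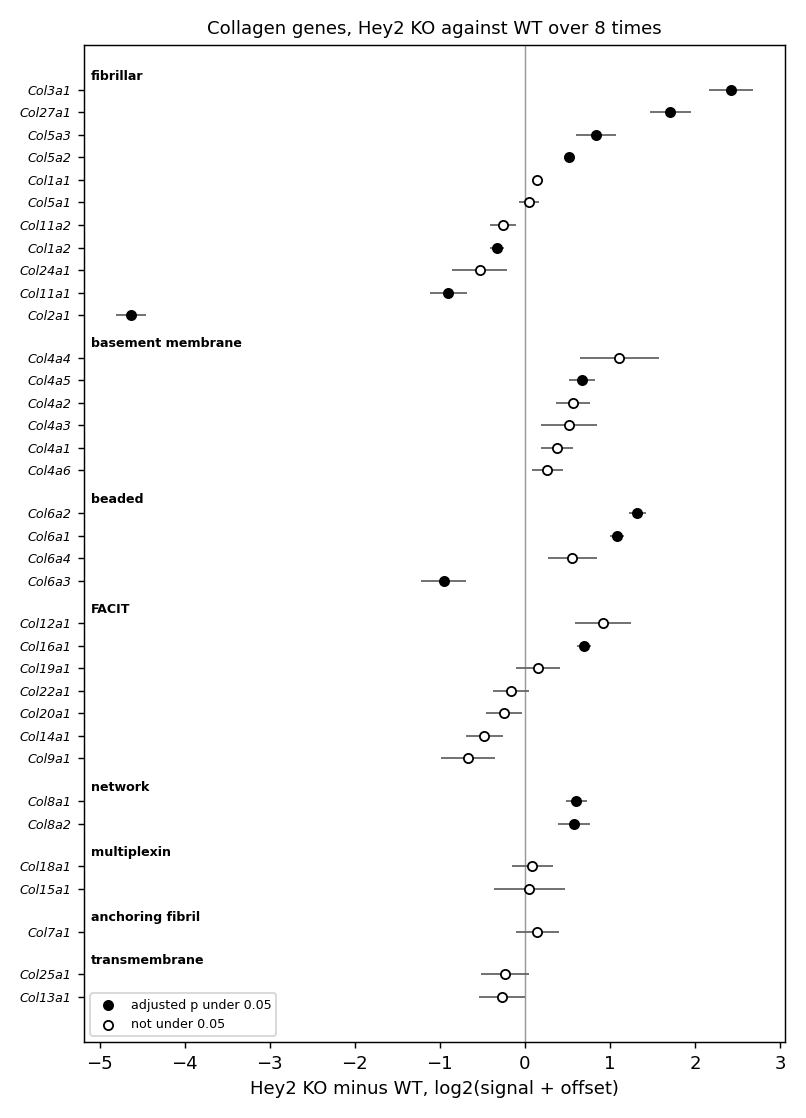
Difference between Hey2 KO and WT for each of 35 collagen genes, grouped by class, as Hey2 KO minus WT in log2(signal + 4.86) over 8 times; bars are the standard error of the fit and filled points passed an adjusted p of 0.05. Col3a1 (2.42) and Col2a1 (-4.63) are the farthest to each side, and within the beaded class Col6a2 and Col6a1 lie to the right and Col6a3 to the left.

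Fibrillar collagens moved in both directions, with 4 of 11 higher, 3 lower and 4 not called. Col3a1, the chain of the type III homotrimer that gives arteries their extensibility, had signals of 1724, 1818, 1587, 1813, 1288, 1181, 987 and 903 in Hey2 KO at 0, 15, 30, 60, 120, 180, 240 and 480 min, the order kept in all lists that follow. The WT arrays gave 345, 397, 393, 75.9, 243, 252, 185 and 332. The lowest Hey2 KO array was above the highest WT array, and the difference was 2.42 (SE 0.26, limma adjusted p = 5.25e-05), or 2.15 with its other tested probe set. Col27a1, a fibrillar chain of developing cartilage, had 113, 94.0, 86.1, 138, 162, 293, 285 and 151 in Hey2 KO. In WT cells the signals were 31.7, 56.4, 7.53, 55.5, 22.5, 57.5, 149 and 53.8. It was higher in Hey2 KO at 8 of 8 times (1.71, SE 0.24, adjusted p = 3.53e-04), although the WT array at 240 min overlapped the Hey2 KO range.

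The type V chains, which set the diameter of type I fibrils, did not move as one. Col5a3 had 56.8, 46.1, 38.6, 46.4, 42.8, 52.2, 70.5 and 75.1 in Hey2 KO. WT signals were 19.7, 18.5, 17.1, 42.4, 26.5, 50.2, 56.9 and 12.2. The WT arrays of 60, 180 and 240 min lay within the Hey2 KO range, and the difference of 0.84 (SE 0.23, adjusted p = 0.0191) was 0.77 and not called without the 0 min arrays (adjusted p = 0.0525). Col5a2 was higher in Hey2 KO at 8 of 8 times without overlap (4321 to 4599, against 2813 to 3535 in WT, difference 0.52, SE 0.05, adjusted p = 3.64e-05), but its second probe set differed by 0.04 and was not called. Col5a1 had a difference of 0.05 and was not called.

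Lower in Hey2 KO was first of all Col2a1, the chain of type II collagen of hyaline cartilage. It had 23.1, 6.27, 29.0, 32.7, 17.8, 22.7, 30.7 and 24.4 in Hey2 KO. Corresponding WT values were 631, 662, 761, 795, 628, 476, 734 and 623. The groups lay far apart at every time, including the arrays labelled 60 and 480 min, with a difference of -4.63 (SE 0.18, adjusted p = 2.66e-08), and 1 Hey2 KO array was under the signal of 16, so the size depends on the offset. Col11a1, which copolymerizes with type II collagen in cartilage, had 64.4, 48.4, 68.3, 81.4, 84.3, 52.6, 45.2 and 30.3 in Hey2 KO. The WT arrays gave 139, 137, 117, 73.6, 96.3, 100.2, 89.0 and 151. Only on the arrays labelled 60 min was Hey2 KO above WT (-0.90, SE 0.22, adjusted p = 0.00965; second probe set -0.75, adjusted p = 0.0179).

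Type I collagen, the main fibril former, showed small differences. Col1a2 had 4621, 5067, 4565, 4869, 4072, 3676, 3829 and 3682 in Hey2 KO. In WT cells the signals were 6316, 6516, 5940.1, 3916, 5224, 5126, 4682 and 5624. Hey2 KO was below WT at 7 of 8 times (-0.33, SE 0.09, adjusted p = 0.0147), while another probe set of Col1a2 differed by 0.02 and was not called. Col1a1, its partner chain, had a difference of 0.15 that was not called on the probe set used (2491 to 3341 in Hey2 KO and 2353 to 3341 in WT), and a dimmer probe set gave 0.54 (adjusted p = 0.0106). Col11a2 (-0.26) and Col24a1 (-0.53), a fibrillar chain of developing bone and cornea, were not called, and Col24a1 was called lower without the 60 and 480 min arrays (-0.65, adjusted p = 0.0304). With the signals as deposited Col11a1 (-0.56), Col1a2 (-0.02) and the beaded chain Col6a3 (-0.62) were no longer called.

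Among beaded-filament chains, the constituents of type VI collagen separated. Col6a1 had 6263, 6250.3, 6104, 5812, 5213, 5732, 5915 and 4874 in Hey2 KO. WT signals were 3461, 3154, 2928, 1855, 2581, 2870.3, 2543 and 2699.8. The groups did not overlap (1.08, SE 0.08, adjusted p = 4.38e-06). Col6a2, which lies next to Col6a1 on chromosome 10 with 0 protein-coding genes between, had 5026, 5133, 5093, 4733, 4616, 4749, 4629 and 3763 in Hey2 KO. Corresponding WT values were 2264, 2265, 2047, 1271, 1966, 1963, 1474 and 2067. Its groups did not overlap either (1.32, SE 0.10, adjusted p = 4.02e-06), and its second probe set gave 1.36. Col6a3, the largest chain of the trimer, encoded on chromosome 1, had 272, 311, 276, 353, 373, 653, 938 and 1101 in Hey2 KO. The WT arrays gave 574, 595, 611, 1891, 725, 1465, 1787 and 584. Hey2 KO was below WT at 7 of 8 times and above it only at 480 min, where the WT array stands apart (-0.96, SE 0.26, adjusted p = 0.0177; -1.03 without the 60 and 480 min arrays). Col6a4 was near the filter, above 16 on 3 Hey2 KO and 1 WT arrays, and was not called (0.55).

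Of the 6 basement membrane genes 1 was higher in Hey2 KO, and 4 were without the 60 and 480 min arrays. Col4a5, a chain of the minor type IV networks, had 3312, 2608, 3365, 2916, 2857, 2225, 2492 and 2021 in Hey2 KO. In WT cells the signals were 2284, 2169, 2489.7, 987, 1455, 1182, 1408 and 2166. It was higher in Hey2 KO at 7 of 8 times, with the exception at 480 min (0.67, SE 0.15, adjusted p = 0.00595; second probe set 0.58). Col4a1 and Col4a2, the chains of the ubiquitous type IV trimer, differed by 0.38 and 0.57 and were not called, and were called higher without the 60 and 480 min arrays (0.34, adjusted p = 0.0495, and 0.56, adjusted p = 0.0021). Col4a4 behaved likewise on the probe set used (1.11 and not called, and 1.06 without those arrays, adjusted p = 4.28e-05). A slightly dimmer probe set of Col4a4 was called higher on all 16 arrays (1.19, adjusted p = 0.00669). The dimmest Col4a4 probe set was not called (0.345, adjusted p = 0.239). Col4a3 (0.52) and Col4a6 (0.26) were not called in either fit.

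FACIT, network and other collagens gave 3 more calls. Col16a1, a FACIT collagen of fibrillin-rich and basement membrane-near matrix, ran from 734 to 962 in Hey2 KO and from 388 to 588 in WT without overlap (0.69, SE 0.08, adjusted p = 9.30e-05). Both type VIII chains were higher. Col8a1 had 3002, 2873, 2842, 2922, 2520.3, 2107, 1764 and 1908 in Hey2 KO. WT signals were 1988, 1894, 2068, 1074, 1449.7, 1456, 1397 and 1824. Hey2 KO was above WT at each time, by little at 480 min (0.60, SE 0.12, adjusted p = 0.00353). Col8a2, much closer to the filter (20.5 to 36.0 in Hey2 KO and 10.5 to 25.8 in WT), differed by 0.58 (SE 0.19, adjusted p = 0.0351), and leaving out the arrays of 0, 15, 120, 180 or 240 min each ended that call, with differences of 0.50 to 0.56. The FACIT collagen Col14a1, which regulates fibril assembly, had -0.48 and was not called, but was called lower without the 60 and 480 min arrays (-0.49, adjusted p = 2.36e-05) and on its second probe set (-1.11, adjusted p = 7.43e-04). Col12a1 (0.92, higher at 8 of 8 times), Col9a1 (-0.67), Col19a1 (0.15), Col20a1 (-0.25) and Col22a1 (-0.16) among the FACIT collagens were not called. Neither were the multiplexins Col15a1 (0.05) and Col18a1 (0.09), the anchoring fibril collagen Col7a1 (0.14) or the transmembrane collagens Col13a1 (-0.27) and Col25a1 (-0.23). Of 19 genes with several tested probe sets, 0 had probe sets called in opposite directions between genotypes.

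Markers of other cell types moved with genotype beside these differences. Over all genes tested 16.6% were higher and 14.1% lower in Hey2 KO, the background for the marker counts. The summed signal of 8 mesothelial markers was 13141 to 15315 in Hey2 KO and 900 to 1745 in WT arrays, with 8 of 8 higher in Hey2 KO, led by Upk1b (5.11), Muc16 (4.45), Upk3b (4.38) and Lrrn4 (4.22). The summed signal of 9 tested smooth muscle markers was 6564 to 9650 in Hey2 KO and 12538 to 17069 in WT, with 7 lower (among them Actg2 -3.38, Myl9 -2.84, Cnn1 -2.33 and Lmod1 -1.86). Myh11 exceeded 16 on 0 Hey2 KO and 8 WT arrays but was dim in both, with maxima of 12.6 and 39.0. Other markers stayed bright in Hey2 KO, with maxima of 6660 for Acta2 (9638 in WT), 2368 for Tagln (4364) and 450 for Smtn (590). Des exceeded 16 on 5 Hey2 KO and 3 WT arrays. Of 6 tested fibroblast markers 4 were higher and 1 lower, with sums of 2891 to 5146 in Hey2 KO and 1801 to 6748 in WT (Thy1 3.12, Lum -3.11, Serpinf1 2.89, Dpt 2.50). For cartilage, the tissue in which Col2a1 and Col11a1 are best known, 2 of 6 tested markers were lower (Sox5 -1.91, Sox9 -1.76) and 2 higher (Comp 0.58, Matn3 0.55), with sums of 191 to 594 in Hey2 KO and 404 to 1424 in WT. The cartilage proteins Matn1 and Cnmd exceeded 16 on no array and Hapln1 on 0 Hey2 KO and 2 WT arrays. Endothelial Pecam1, Cdh5, Vwf and Tie1 and the leukocyte gene Itgam exceeded 16 on no array, and 0 of 3 tested endothelial and 1 of 4 tested leukocyte markers (Cd14, 0.44) were called. Other members of these lists were present. Csf1r (maxima 747 in Hey2 KO and 333 in WT), Cd14 (678 and 504) and endothelial Kdr (58.7 and 65.2) exceeded 16 on 8 arrays of each genotype. The leukocyte sums were 743 to 1343 in Hey2 KO and 454 to 888 in WT. Endothelial sums were 36.3 to 89.7 in Hey2 KO and 36.6 to 91.4 in WT. Without the 60 and 480 min arrays, 1 cartilage marker was higher and 2 were lower, and 2 leukocyte markers were higher and 1 lower. The other marker counts were unchanged, and 21.6% of all genes were higher and 20.9% lower on those arrays. The part of these cell type markers in the collagen differences was not tested.

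**Figure D2:**
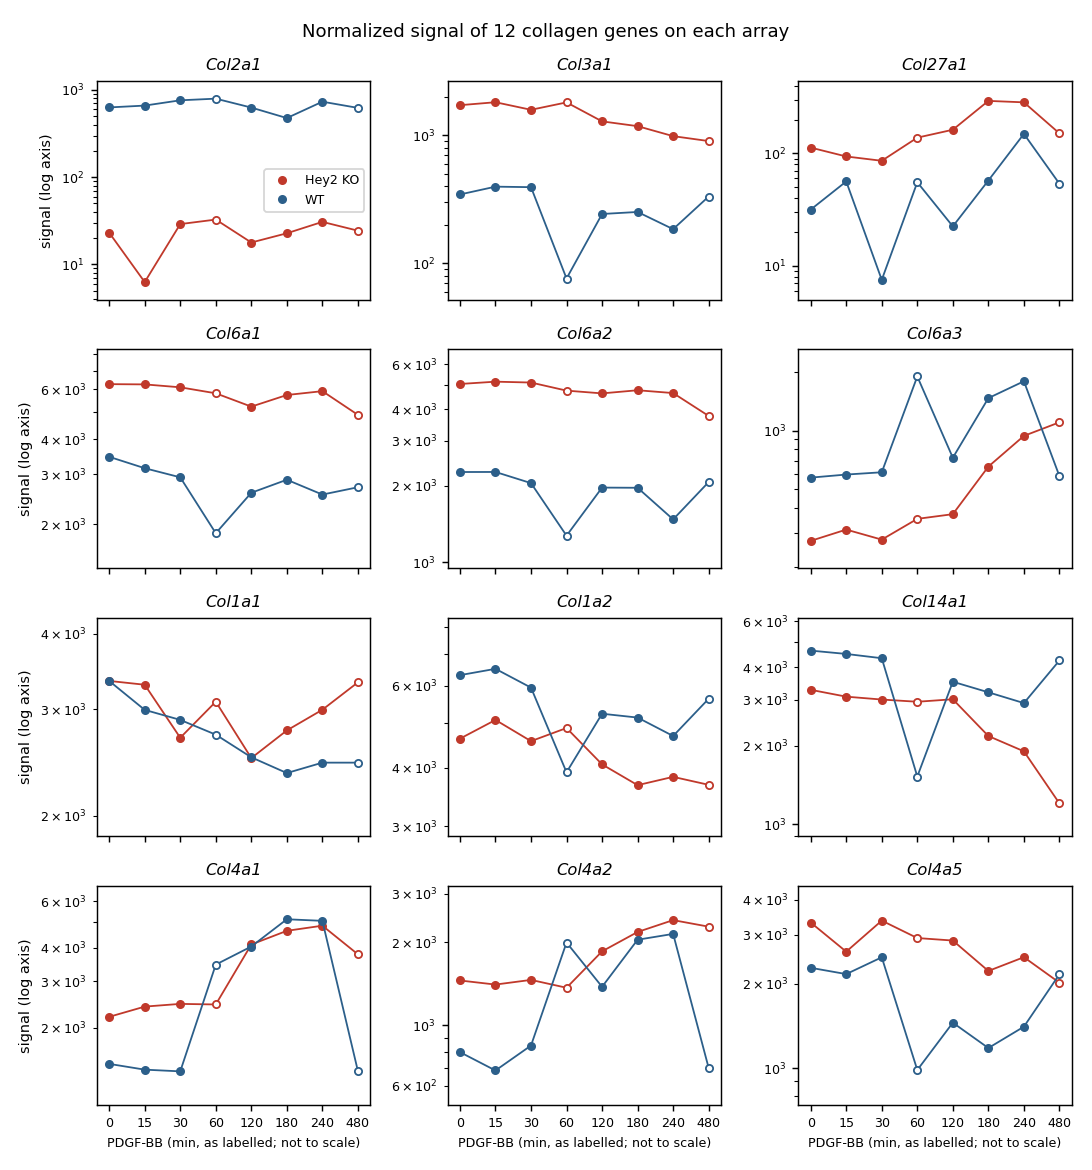
Normalized signal (log axis, a different range in each panel) of 12 collagen genes on each array against the labelled PDGF-BB time, with Hey2 KO in red and WT in blue; open circles are the arrays labelled 60 and 480 min. Col2a1, Col3a1, Col6a1 and Col6a2 keep the genotypes apart at every time, while Col4a1 and Col4a2 start higher in Hey2 KO and lie closer to WT at 180 and 240 min.

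The time comparison set the mean of 120, 180 and 240 min against that of 0, 15 and 30 min over both genotypes. Of 35 collagen genes, 5 rose (14.3%, against 11.5% of all genes tested) and 5 fell (14.3%, against 17.8%), shares near the background. Without the 60 and 480 min arrays 8 rose and 12 fell, against 19% and 28.3% of all genes. The median change was 0.00 over collagen genes and -0.06 over all genes. With the signals as deposited, where the median of all genes was 0.15 and 79.4% of all calls were rises against 39.2%, 6 collagen genes rose and 1 fell.

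Of the 6 basement membrane chains 2 rose and 1 fell, with a class median of -0.17. Col4a1 had 2198, 2403, 2460.3, 2448, 4122, 4642, 4853 and 3784 in Hey2 KO. Corresponding WT values were 1461, 1389, 1369, 3461, 4051, 5133, 5063 and 1372. In both genotypes every late array was above every early one (1.34, SE 0.22, adjusted p = 0.00175), and its second probe set rose by 0.84 (adjusted p = 0.0347). Its head-to-head partner Col4a2 had 1453, 1404, 1459.7, 1367, 1854, 2181, 2409 and 2281 in Hey2 KO. The WT arrays gave 797, 683, 842, 1997, 1378, 2044, 2146 and 698. It rose by 0.90 (SE 0.23, adjusted p = 0.0152), with late and early arrays apart in each genotype, and was not called without the 15, 180 or 240 min arrays (0.80 to 0.85, adjusted p = 0.0506 to 0.0672). Col4a5, from the other head-to-head pair, whose starts lie 1343 bases apart, fell by 0.54 (SE 0.17, adjusted p = 0.0398), and its neighbour Col4a6 had -0.34 and was not called on 16 arrays, but was called as a fall without the 60 and 480 min arrays (adjusted p = 0.0173) and without the time block (adjusted p = 0.0232).

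Other rises were those of Col7a1, Col27a1 and Col6a3. Col7a1, which anchors basement membranes to the matrix below, had 30.9, 49.6, 36.7, 43.0, 50.6, 124, 107 and 145 in Hey2 KO. In WT cells the signals were 45.4, 31.4, 21.3, 93.1, 69.6, 103, 109 and 44.0. The late arrays were above the early ones in each genotype (1.26, SE 0.29, adjusted p = 0.00962). Col27a1 changed by 1.17 (SE 0.28, adjusted p = 0.0113), and was not called without the 30 min arrays (0.81, adjusted p = 0.064) or the 240 min arrays (0.79, adjusted p = 0.107). Col6a3 rose by 1.07 (SE 0.30, adjusted p = 0.023), a call lost when the arrays of 0, 15, 30, 180 or 240 min were left out (0.79 to 1.10, adjusted p = 0.0591 to 0.162). Col6a1 (-0.20) and Col6a2 (-0.21) were not called, but were called as falls without the 60 and 480 min arrays (adjusted p = 0.00556 and 0.0175) and without the time block (adjusted p = 0.00796 and 0.0254).

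Falls were smaller apart from Col24a1. It had 44.2, 27.1, 32.4, 25.9, 25.6, 10.3, 14.2 and 6.54 in Hey2 KO. WT signals were 78.5, 85.4, 71.0, 5.54, 29.9, 15.2, 14.7 and 37.9. Late arrays were under early ones in both genotypes (-1.35, SE 0.38, adjusted p = 0.021), and 2 late arrays of each genotype were under the signal of 16. Col8a1 fell by 0.46 (SE 0.14, adjusted p = 0.032), Col1a2 by 0.31 (SE 0.10, adjusted p = 0.0386) and Col1a1 by 0.25 (SE 0.08, adjusted p = 0.0297). These falls depended on the setting. Of 18 other settings, the call was lost with the direction kept in 8 for Col8a1, 10 for Col1a2, 9 for Col4a5 and 7 for Col1a1. Col1a1 also reversed in 1. The other probe sets of Col1a2 fell further, by 0.91 and 1.05 (adjusted p = 0.00633 and 0.00739). Col3a1 had -0.66 and was not called, but was called as a fall without the 60 and 480 min arrays (adjusted p = 2.59e-05), without the 60 min arrays alone (adjusted p = 0.00226), without the time block (adjusted p = 8.98e-05) and on its second probe set (-0.84, adjusted p = 0.0252). Without the 60 and 480 min arrays Col14a1, Col16a1 and Col4a4 were also called as falls and Col5a1, Col5a3 and Col15a1 as rises, and all of these but Col16a1 were called under other settings too. Of the 3 tested probe sets of Col5a1, the one used had 0.35 and was not called, while the others rose by 0.96 and 0.81 (adjusted p = 0.00101 and 0.0012). Col4a1 kept its call as a rise under all 18 alternative settings tried. Depending on which time was left out, 2 to 8 collagen genes rose, with 2 without the 180 or the 240 min arrays, and 0 to 8 fell, with 0 without the 0 or the 180 min arrays. The ratio of 3' to 5' Actb controls, a measure of RNA integrity, was 1.54 to 2.44 in Hey2 KO and 1.53 to 1.84 in WT at 120 to 240 min, and 1.95 to 3.71 in Hey2 KO and 2.41 to 3.88 in WT at 0 to 30 min, and its part in the time changes was not tested.

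**Figure D3:**
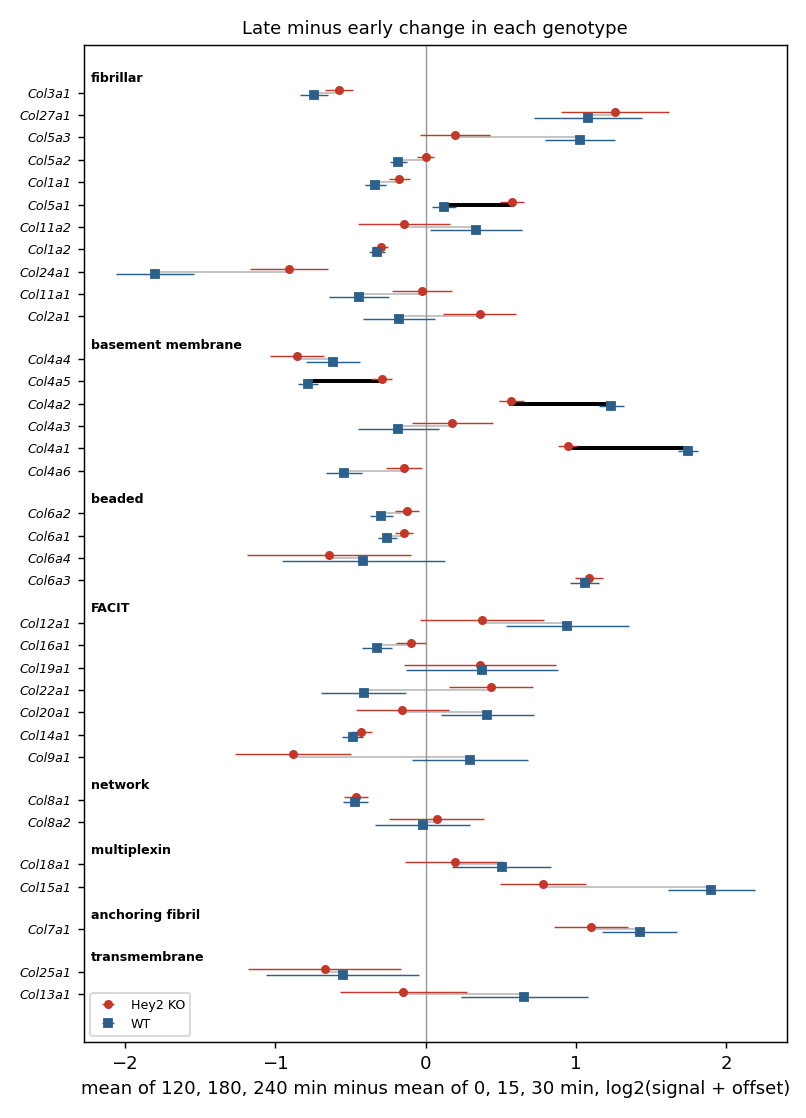
Change from 0 to 30 min to 120 to 240 min in log2(signal + 4.86) for each of 35 collagen genes, with Hey2 KO as red circles and WT as blue squares, standard errors of the 12-array fit as bars, and thick black links where the changes differed at an adjusted p of 0.05. The 4 black links are Col4a1 (0.94 in Hey2 KO and 1.74 in WT), Col4a2, Col4a5 and Col5a1.

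Whether the late change differed between genotypes was tested on the 12 arrays of 0 to 30 and 120 to 240 min. Of 35 collagen genes 4 were called (11.4%, against 4.27% of 13913 genes), 2 with a more positive change in Hey2 KO (2.1% of all genes) and 2 with a less positive one (2.17%). Col4a1 rose by 0.94 in Hey2 KO (SE 0.07) and by 1.74 in WT (SE 0.07), a difference of -0.80 (SE 0.09, adjusted p = 5.18e-04). Col4a2 rose by 0.57 in Hey2 KO and 1.24 in WT (difference -0.67, SE 0.12, adjusted p = 0.0067). For both chains the genotypes were apart at 0 to 30 min, with Hey2 KO above WT on every array, and their ranges overlapped at 120 to 240 min. Col4a5 changed by -0.29 in Hey2 KO and -0.78 in WT (difference 0.49, SE 0.10, adjusted p = 0.0137). Col5a1 had 1145, 1331, 1183, 1177, 1473, 1838, 2215 and 2102 in Hey2 KO. Corresponding WT values were 1402, 1435, 1470.3, 1438, 1135, 1582, 2122 and 1242. It changed by 0.58 in Hey2 KO and 0.12 in WT (difference 0.46, SE 0.11, adjusted p = 0.0405), the WT array at 120 min lying under the early WT arrays.

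These interaction calls depend on the model and on the arrays used. A spline over all 16 arrays as labelled called none of the 4 and turned the sign for Col4a1 (0.026), Col4a2 (0.083) and Col4a5 (-0.077), and the fit without a factor per time kept only Col4a1. The second probe set of Col4a1 had a difference of -0.46 that was not called (adjusted p = 0.524). That of Col4a5 had -0.081, opposite in sign to the probe set used (adjusted p = 0.892), and the other probe sets of Col5a1 had 0.36 and 0.31 and were not called (adjusted p = 0.476 and 0.233). The remaining 31 collagen genes had differences of -1.17 to 0.89 and were not called, and among them Col6a3 changed by 1.08 in Hey2 KO and 1.06 in WT.

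**Figure D4:**
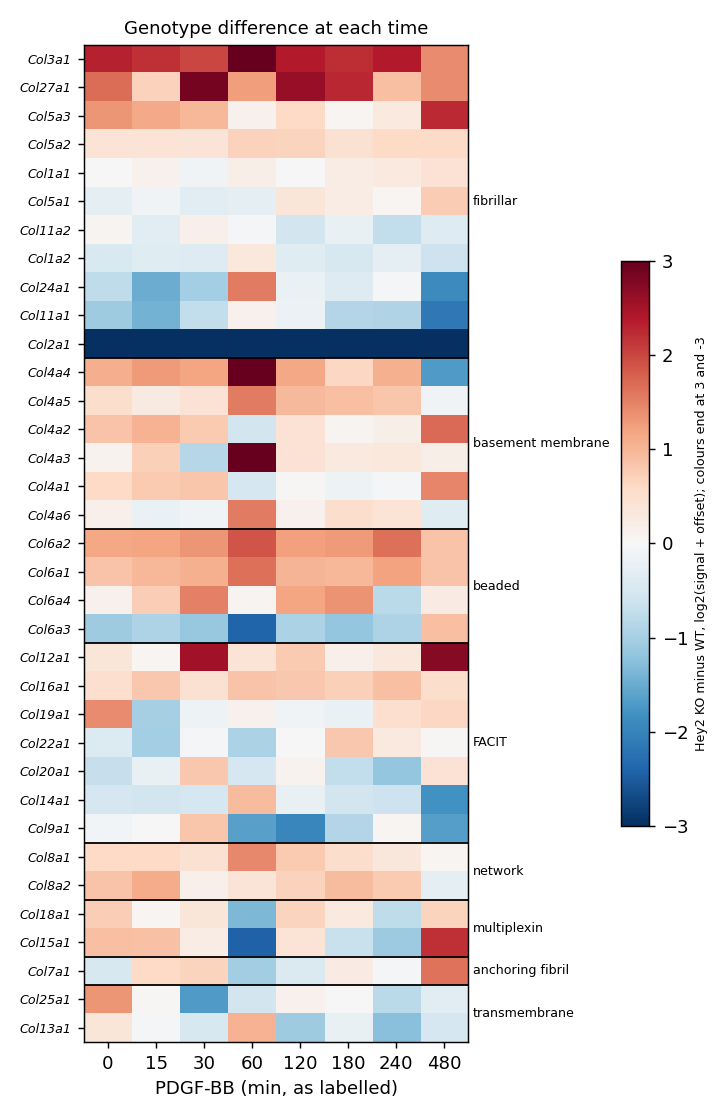
Hey2 KO minus WT in log2(signal + 4.86) at each labelled time for 35 collagen genes by class; red is higher in Hey2 KO, blue lower, and colours end at 3 and -3. The columns of 60 and 480 min depart from their neighbours for Col4a1, Col4a2, Col6a3 and Col15a1, while the rows of Col3a1, Col2a1, Col6a1 and Col6a2 keep one colour.

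Genes that make, cross-link and sense collagen were set beside the chains. Of 14 tested genes of collagen hydroxylation and glycosylation, 7 were higher in Hey2 KO and 3 lower, where 16.6% of all genes were higher and 14.1% lower, the background for each list that follows. The lysyl hydroxylases Plod2 (1240.0 to 2439 in Hey2 KO and 481 to 1096 in WT, difference 1.20) and Plod1 (1.01) were higher, and the prolyl 3-hydroxylase P3h2 (46.4 to 72.3 in Hey2 KO and 262 to 518 in WT, difference -2.81) and the prolyl 4-hydroxylase subunit P4ha3 (-1.76) were lower, without overlap between genotypes in each case. For folding and secretion, 2 of 10 were higher (Tmem38b 0.68, Sec23a 0.34) and 2 lower (Mia3, a cargo receptor for procollagen, -0.56, and Fkbp14 -0.37). Among 5 genes of propeptide removal, 2 were higher, the proteinase Tll1 (0.87) and its enhancer Pcolce (0.21). Cross-linking gave 1 higher of 5, the lysyl oxidase Loxl1 (1.26), and 1 lower, Loxl4 (-0.66). Without the 60 and 480 min arrays, 8 hydroxylation and glycosylation genes were higher and 3 lower, and 2 of folding and secretion were higher and 2 lower. For propeptide removal 3 were higher and 0 lower, and for cross-linking 2 were higher and 1 lower. On those arrays 21.6% of all genes were higher and 20.9% lower.

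Proteins that bind fibrils were divided, with 4 of 11 higher and 4 lower (16.6% and 14.1% of all genes). Small leucine-rich proteoglycans went both ways. Lum (112 to 274 in Hey2 KO and 412 to 3085 in WT, difference -3.11), Fmod (-2.61) and Prelp (-1.40) were lower. The brighter Dcn (0.56) and Bgn (0.15) were higher, and Ogn (0.03) was not called. Dermatopontin (Dpt, 2.50, with 1 WT array above 16) was also higher. Of 9 collagen receptors 1 was lower, the discoidin receptor kinase Ddr2 (-0.78, 871 to 1403 in Hey2 KO and 1470.3 to 2509 in WT). Without the 60 and 480 min arrays, 1 of 8 tested receptors was higher and 3 were lower, against 21.6% and 20.9% of all genes. Of 12 regulators of collagen genes 0 were higher and 2 lower, a share near the 14.1% of all genes for the lower ones. The 2 were Sox5 (-1.91) and Sox9 (-1.76), which activate Col2a1 and Col11a2 in chondrocytes, though Col11a2 was not called here (-0.26). Sox6 from the same list went the other way (0.66, not called). Without the 60 and 480 min arrays Sox6 was called higher (0.999, limma adjusted p = 0.0337). On those 12 arrays 1 regulator was higher and 3 were lower. In the time comparison 4 regulators rose, Creb3l1 (2.19, adjusted p = 7.58e-04), a membrane-bound activator of type I collagen genes in osteoblasts, Sox9 (2.10), Ets1 (1.64) and Smad3 (0.68), and 0 fell, where 11.5% of all genes rose and 17.8% fell. Creb3l1 ran from 151 to 869 in Hey2 KO and from 120 to 945 in WT over the whole course, and at 0 to 30 min each Hey2 KO array (151 to 169) was above each WT array (120 to 148).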

How the data were processed

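The files hold linear probe-set intensities deposited by the authors, who produced them with MAS5 according to the submitters' processing notes. The MAS5 version and any scaling target are not stated. Genotype and time were read from the sample titles. Of 45101 probe sets, 34945 had 1 gene symbol, and the 82 collagen probe sets all matched RefSeq genes by gene identifier. Because array brightness differed, signals were quantile normalized, and the 20th percentile of all values (4.86) was added before taking log2. Testing required a signal above 16, the 40th percentile, on 3 or more arrays. The brightest such probe set stood for its gene (14299 genes, or 13913 on 12 arrays).

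All tested genes were fitted together with limma 3.58.1 (R 4.3.3) and an intensity trend, with Benjamini-Hochberg adjustment at 0.05. The genotype and time comparisons used time as a factor plus genotype on 16 arrays, so the time-matched arrays formed blocks, and the interaction used 12 arrays. The pairing comes from the shared time in the labels. Standard errors are those of the fit, whose precision is limited by having 16 arrays. Motif letters were searched on both strands of the RefSeq promoter windows, and positions count from 1 at the start. The fits were also run on simulated data with independent noise for each gene and array, which cannot address the doubtful array labels. The members, lists and tests were chosen with earlier results of these data known. Values on every array are given for the 5 largest increases and decreases between genotypes (4 decreases were called), the 3 largest rises and falls with time and the 4 called interactions. From the other lists, the called members with the 4 largest differences are named, with some further members beside them. Other settings tried were the scaling, the offset, the filter, all probe sets, no variance trend, no block, each time left out, another baseline and another shape of the interaction.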

Additional observations from a re-analysis of the deposited data

Results flagged for a closer look

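The test of the difference itself, genotype by window on 12 arrays, singled out 4 collagen genes whose change from 0 to 30 min to 120 to 240 min differed between Hey2 KO and WT. Hey2 KO change minus WT change was -0.80 for Col4a1, -0.67 for Col4a2, 0.49 for Col4a5 and 0.46 for Col5a1. Col4a1 and Col4a2 rose in both genotypes and less in Hey2 KO, where they began higher. None of the 4 was called without the intensity trend, and Col4a2, Col4a5 and Col5a1 were not called without the time block. No cause was tested.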

How the results depend on the processing

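Of 478 refits of 28 called gene results, 387 kept the direction and the call, 87 kept the direction only and 4 reversed. Of the 28 results, 10 kept direction and call in every refit, namely the rise of Col4a1 and the genotype differences of Col2a1, Col3a1, Col4a5, Col5a2, Col6a1, Col6a2, Col8a1, Col16a1 and Col27a1. These refits used 1 probe set per gene and do not include the fit of all probe sets. In that fit the second probe set of Col5a2 differed by 0.04 and was not called. For the genotype comparison, 17 collagen probe sets were higher and 6 lower when all tested probe sets were fitted, and 1 gene was lower with the signals as deposited; leaving out a time gave 8 to 13 higher and 4 to 6 lower. For the time comparison, rises numbered 11 over all probe sets, 8 without the 60 and 480 min arrays, 1 against 0 min alone and 2 to 8 with a time left out. Falls numbered 1 as deposited, 8 over all probe sets, 1 without the intensity trend, 12 without the 60 and 480 min arrays, 0 against 0 min alone and 0 to 8 with a time left out. Without the replicate block, that is without pairing arrays by time, 11 genes were higher and 3 lower, 7 rose and 11 fell, and the interaction called 0 with a more positive and 1 with a less positive change in Hey2 KO. For the interaction, more positive calls numbered 0 as deposited, 1 with one trimmed mean, 1 without a filter, 0 without the trend, 0 with the spline and 0 to 2 with a time left out; less positive ones 0 as deposited, 0 without the trend, 0 with the spline and 1 to 3 with a time left out. Reversed values were 0.10 for the late change of Col1a1 as deposited and, with the spline, 0.026 for Col4a1, 0.083 for Col4a2 and -0.077 for Col4a5. The cause was not tested. Col6a4, Col8a2, Col13a1, Col19a1 and Col25a1 had signals around the threshold of 16, which limits their precision.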
